A study of Homo sapiens with 12 samples.

Results

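The mRNA pool left in U2OS cells, a human osteosarcoma line, after 8 h of 1 μM triptolide was compared between cells given a guide RNA against EXOSC5 (EXOSC5-KO) and cells given a nontargeting guide (NONT). The comparison used 2 EXOSC5-KO and 2 NONT libraries, 4 of the 12 libraries of the series, and 11969 of the 22379 genes in the table, namely those with a mean value of at least 10 over these 4 libraries. In every group, cells were transiently transfected with a plasmid that carried Cas9, the guide and puromycin resistance, and were selected and expanded as a mixed population, so a knockout group is a pool of edited and possibly unedited cells and not a clone. The other groups, used only for reference, were EXOSC5-KO and NONT cells without drug and NUP93-KO cells with and without drug, 2 libraries each. The study used loss of EXOSC5 or NUP93 as a way to keep mRNA in place while transcription was blocked, and the comparison asks how much more mRNA was left in EXOSC5-KO cells and which mRNAs made it up.

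Triptolide binds the XPB helicase of TFIIH and blocks initiation by RNA polymerase II, so that mRNA is lost by decay without being replaced. The RNA exosome is a ring of subunits with associated nucleases that degrades RNA from the 3′ end, in the nucleus and in the cytoplasm. EXOSC5 is a structural subunit of that ring and is not itself a nuclease. In the nucleus the exosome also removes prematurely ended and other noncoding transcripts, and cofactor complexes bring it to its targets.

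The EXOSC5 guide is shown because its site says which part of the gene was cut. The gene (ENSG00000077348) lies on the minus strand of chromosome 19 in GRCh38, from 41386371 to 41397362, and has 6 exons. The guide matched the plus strand at chr19:41397170-41397189, and 9 of its bases lie in exon 1 while 11 lie in intron 1. In the first line the PAM is in capitals, in the second the bases that lie in exon 1, and in the third, which is the sense strand of the gene at chr19:41397161-41397200, the exon 1 bases at the splice donor.
Guide with PAM: gaagttcttaccttgcaggaAGG
Guide with exon bases: gaagttcttacCTTGCAGGA
Exon 1 to intron 1 junction: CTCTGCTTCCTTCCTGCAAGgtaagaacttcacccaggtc
The expected cut falls between bases 41397186 and 41397187, with 6 bases of exon 1 between it and the intron.

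Values are given on 2 scales. On the spike-in scale, the value of a gene is its signal relative to ERCC RNAs, synthetic transcripts that were added in proportion to the counted cells. On the same-total scale, the gene values of each library were set to sum to 10 M (1 M is 1000000), so a value is a share of the pool. EXOSC5 itself was examined first. On the same-total scale it stood at 93.9 and 126 in the EXOSC5-KO libraries under triptolide and at 448 and 424 in the NONT libraries. Both knockout libraries were below both controls. The log2 difference was −1.99 ± 0.19 (SE, n = 2 per group, limma adjusted p = 0.00024), and on the spike-in scale it was −1.42 (limma adjusted p = 0.00145). Without drug EXOSC5 was also lower, at 149.9 and 110.1 against 264 and 293. Of 35 tested genes within 1000 kb of EXOSC5, 4 were higher and 1 was lower, and their median log2 difference was 0.07, close to that of all genes tested.

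Approximate depth, read from the spacing of the lowest values, was 8.60 to 9.94 M reads in 3 of the 4 libraries and 10.1 M in NONT replicate 2. The replicates of EXOSC5-KO and of NONT correlated at r = 0.965 and 0.966 across genes. On the spike-in scale the NONT replicates stood apart in level, with a median log2 difference of 0.26 between them, whereas the EXOSC5-KO replicates differed by −0.01. Nothing in the labels says that replicates were separate cultures, so every p-value below measures a spread between libraries, which may be technical. For the limma tests that spread was estimated over all 12 libraries of the 6 groups, and not from the 4 compared libraries alone. Of 12 osteoblast lineage markers, COL1A1, COL5A1, SPARC, VIM, ALPL and SPP1 had at least 10 in all 4 libraries, while SP7, IBSP and TWIST1 were at 0. RUNX2 was at 34.8 and 26.9 in EXOSC5-KO and at 10.7 and 9.56 in NONT. COL1A2 was at 10.3 and 11.3 in EXOSC5-KO and at 24.7 and 4.05 in NONT, and BGLAP was at 1.17 or below. Of 5 epithelial markers 4 reached 10 in all 4 libraries, and their summed signal was 7460.4 to 7597 in EXOSC5-KO against 3705 to 4616 in NONT. The blood marker CD3E was at 0, and neither the blood nor the endothelial markers reached 10 in all 4 libraries.

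EXOSC5-KO cells kept more mRNA per spike-in than NONT cells after triptolide. The gene values summed to 8.01 and 8.03 M in the EXOSC5-KO libraries and to 5.94 and 4.90 M in the NONT libraries. The groups did not overlap, and most of the spread lay between the NONT replicates. The ratio of the means was 1.48, with 1.35 and 1.64 as its extremes over the single pairings of a knockout with a control library. The exact two-sided permutation test gave p = 0.333, the smallest value that 2 against 2 libraries allow. The ERCC sums behind the scale were equal by construction, with a ratio of 1.00. In bulk RNA a larger sum per spike-in cannot be told apart from a miscounted number of cells or a misjudged volume of spike-in, since each shifts every gene of a library alike.

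The sums without drug give the starting point. They were 14.4 and 13.4 M in EXOSC5-KO and 11.3 and 16.4 M in NONT. The groups overlapped and the 2 NONT libraries enclosed both knockout libraries. As a percent of its own untreated mean, the sum left after 8 h was 57.7% in EXOSC5-KO (55.6% to 59.9% over the single pairings) and 39.0% in NONT (29.8% to 52.4%). The NONT range is wide because both of its groups had uneven replicates. The median gene kept 51.3% of its untreated signal in EXOSC5-KO and 34.4% in NONT, and 93.3% of 11963 genes with signal in both untreated groups kept a larger share in EXOSC5-KO. Genes left with under 10% of their untreated signal were 5.13% of those in EXOSC5-KO and 11.9% in NONT.

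**Figure D1:**
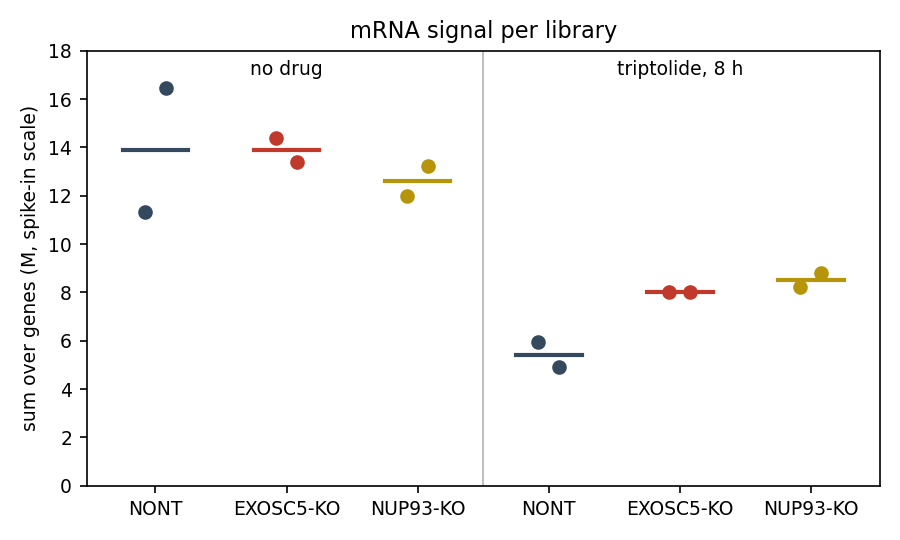
Sum of gene values per library in M on the spike-in scale (vertical axis, from 0), by guide, without drug and after 8 h of triptolide. Points are libraries and bars are group means (n = 2). Under triptolide the EXOSC5-KO libraries sit at 8.01 and 8.03 and the NONT libraries at 5.94 and 4.90.

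Gene by gene, most of the pool was higher in EXOSC5-KO on the spike-in scale. The median log2 difference was 0.64 over 11969 genes, a fold of 1.56, with 0.50 and 0.78 as the extremes over the single pairings. Differences were above 0 for 94.4% of genes, and 22.3% were at least 1. A linear model fitted across all genes with limma called 5493 genes higher, or 45.9% of those tested, and 18 lower, or 0.150% (Benjamini-Hochberg adjusted p under 0.05). The count of higher genes depended on which library was left out. It was 1520 without NONT replicate 2, 2466 without EXOSC5-KO replicate 1 and 2467 without EXOSC5-KO replicate 2, and 5690 without NONT replicate 1.

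Setting each library to the same total shifts all genes of a library by nearly the same amount on the log2 scale, and leaves their order as it was. The median log2 difference was then 0.08, and the lower and upper quartiles were 0.55 log2 units apart. The model called 1200 genes higher, 10.0% of those tested, and 592 lower, or 4.95%. Of the 1200, 143 had a NONT mean below 10 per spike-in and passed the filter only through EXOSC5-KO. These had to be higher per spike-in, so the higher count is partly set by the filter. Without EXOSC5-KO replicate 1 the counts were 595 and 319, without EXOSC5-KO replicate 2 605 and 312, and without NONT replicate 2 754 and 316. The higher against lower split also depends on what is held equal. Higher genes made up 67.0% of calls on the same-total scale, 43.9% (859 higher, 1096 lower) when the libraries were scaled by the median of gene ratios, and 28.0% (241 higher, 619 lower) when they were scaled to equal mitochondrially encoded mRNA, which shifted the median difference to −0.02 and −0.18. Differences on the same-total scale are therefore shares of the pool, and a gene that is lower on it may still have had more signal per spike-in.

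**Figure D2:**
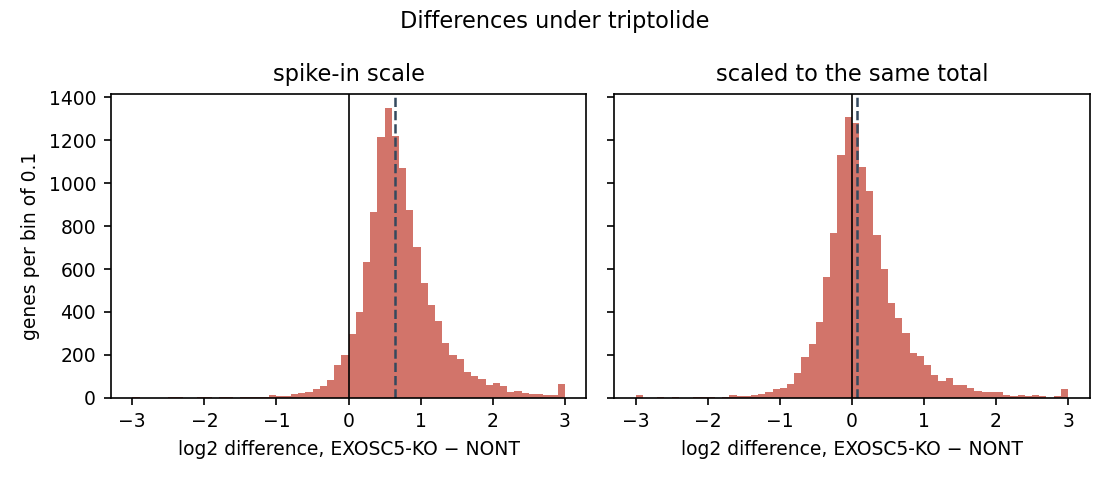
Number of genes (vertical axis, bins of 0.1) by log2 difference of EXOSC5-KO minus NONT under triptolide, on the spike-in scale (left) and at the same total (right). The dashed lines are the medians, 0.64 and 0.08, and genes beyond 3 in either direction are counted in the end bins.

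The genes with the largest higher values in EXOSC5-KO were few and far from the rest. PCF11, a factor in cleavage and termination at the 3′ ends of mRNAs, stood at 890.4 and 780.0 on the same-total scale in EXOSC5-KO and at 34.4 and 37.3 in NONT. Its log2 difference was 4.50 ± 0.25 (SE, limma adjusted p = 7.06e-06). PCF11 was also far higher without drug, at 751 and 709 against 75.0 and 97.0, and it kept 65.9% of its untreated signal in EXOSC5-KO against 15.8% in NONT. PCSK5, a proprotein convertase, stood at 2880.3 and 2643 against 275 and 304, a log2 difference of 3.25 ± 0.13 (limma adjusted p = 9.35e-07), and without drug at 2935 and 3217 against 292 and 316, so that nearly the same ratio was seen before and after the drug. RBBP6, which belongs to the 3′ end processing machinery like PCF11, stood at 329 and 418 against 54.0 and 65.1. Its log2 difference was 2.62 ± 0.28 (limma adjusted p = 0.00037).

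Other genes chosen by the same rule were lower in signal. KICS2, a subunit of a complex that restrains mTORC1, stood at 182 and 145 against 25.4 and 14.4, and APOLD1 at 165 and 129 against 23.2 and 15.4. ADGRF1, an adhesion G protein-coupled receptor, reached 245 and 182 against 48.0 and 10.1, while without drug it was at 7.36 and 16.9 in EXOSC5-KO and at 4.40 and 6.48 in NONT. POTEI, ANKRD30BL and an ID with no symbol in the annotation (ENSG00000215271) were higher as well, with log2 differences of 2.85, 2.61 and 4.03, but POTEI and ANKRD30BL belong to families of near-identical copies among which reads may be divided, so their values are uncertain. ENSG00000215271 had a NONT mean below 10 and passed the filter only through EXOSC5-KO. NOTCH1 and ENSG00000273889 were called on the spike-in scale alone, and both had NONT replicates far apart (60.3 and 0 for NOTCH1), which leaves their differences uncertain too. Without NONT replicate 2 the NOTCH1 difference was 0.97 and was not called.

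Early embryo genes, a group that is silent in most adult cells, were nearly all below the filter. Of 43 genes, 3 were tested. Of these, 2 had a NONT mean below 10 and passed the filter only through the EXOSC5-KO libraries, in which they had to be higher, so no test is given for them. H3Y1, a primate histone H3 variant, stood at 122 and 95.4 against 3.04 and 0.995. TAF11L12 stood at 35.0 and 55.3 in EXOSC5-KO and was listed at 0 in both NONT libraries under triptolide. Without drug TAF11L12 was at 271 and 234 against 3.35 and 10.7. Both genes have 1 exon and lie on chromosome 5, H3Y1 at 17654868 to 17655849 and TAF11L12 at 17610496 to 17611583, and TAF11L12 has close copies, so its reads may be shared.

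Immediate early genes code for short-lived mRNAs that are normally made within minutes of a stimulus, and triptolide left little of them. Of 37 genes, 12 were tested, 6 were higher and none was lower, where 10.0% of all genes were higher and 4.95% lower. The median log2 difference of the 12 was 0.66 against 0.08 for all genes tested. Of the 12, 3 passed the filter only through EXOSC5-KO, with a NONT mean below 10 per spike-in, and 2 of those, IER2 and NR4A2, are among the 6, so the count and the median are descriptions. The count was 2 with the 4 libraries of the contrast alone and 3 when libraries were scaled to equal mitochondrially encoded mRNA. The median tested member kept 5.79% of its untreated signal in EXOSC5-KO and 2.41% in NONT, and all 12 kept a larger share in EXOSC5-KO, as did 93.3% of all genes. IER2, a nuclear regulator of transcription, stood at 69.6 and 79.7 against 13.7 and 10.3. IER2 without drug was at 1259 and 1235 in EXOSC5-KO and at 965 and 915 in NONT, so that 3.45% and 0.507% of its untreated signal per spike-in was left. FOSL2, an AP-1 subunit, stood at 361 and 311 against 96.7 and 83.8, with a log2 difference of 1.88 ± 0.17 (limma adjusted p = 0.000223). NR4A2, an orphan nuclear receptor, stood at 41.0 and 28.6 against 4.16 and 5.53. Both EXOSC5-KO libraries were above both NONT libraries for these 3 genes, as they were for 33.9% of all genes tested.

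For IER2 and FOSL2 the gap under triptolide was larger than the gap without drug. The difference between the 2 gaps was tested in the same model over all genes, and 9 genes passed on the same-total scale, all of them with a larger gap under triptolide, or 0.0752% of those tested. None passed in the other direction (0%), and at an unadjusted p under 0.05 there were 801 in the first direction and 390 in the other. Per spike-in, a scale that carries the general shift, 68 genes passed with a larger difference under triptolide (0.568%) and 3 with a smaller one (0.0251%). These 68 included 8 of the 9, and FRMD6 missed the threshold there. The 9 genes were PNRC1, RTL10, IER2, FOSL2, C11orf68, WDR74, YTHDF2, HSPA8 and FRMD6. All 9 were named for their values in these data, IER2, FOSL2 and HSPA8 through the rule for lists and the others after this test. PNRC1, RTL10 and IER2 had a NONT mean below 10 per spike-in under triptolide and passed the filter only through EXOSC5-KO. The filter thus favoured a larger gap under triptolide for them, so their calls, and the direction they add to, are descriptions. PNRC1, a nuclear receptor coactivator that also acts on decapping factors, had the largest: it stood at 49.6 and 61.2 against 2.50 and 2.46 under triptolide and at 397 and 434 against 301 and 281 without drug. Its NONT values under triptolide were 1.48 and 1.21 per spike-in, close to the pseudocount of 1, so the size of its gap is uncertain. C11orf68 stood at 577 and 519 against 129 and 131 under triptolide and at 1224 and 1144 against 888 and 814 without. YTHDF2, a reader of m6A that promotes mRNA decay, stood at 314 and 355 against 137 and 135 under triptolide and at 1763 and 1583 against 1368 and 1402 without. HSPA8, an abundant chaperone of the HSP70 family, stood at 13598 and 13774 against 8391 and 8723 under triptolide, and without drug the order was the other way, at 28980.1 and 31080.4 against 32388 and 32512.

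Whether the retained share followed the lability of mRNAs was described with the NUP93-KO libraries, which are not part of the comparison. Genes were ordered by their response to triptolide in NUP93-KO on the same-total scale and split into 5 groups of 2393 or 2394. In the most reduced quintile the median EXOSC5-KO minus NONT difference was 0.32 under triptolide (0.29 to 0.34 over the single pairings) and 0.05 without drug. In the other quintiles, from more to less reduced, it was 0.10, 0.02, 0.00 and 0.07 under triptolide. Of genes in the most reduced quintile, 18.1% were called higher and 2.09% lower, against 10.0% and 4.95% of all genes. That quintile also had the lowest signal, with a median of 42.2 against 107 to 355 in the others. Among genes with a mean of at least 100 the median in the most reduced quintile was 0.10 and 17.5% were called higher, and in the least reduced quintile the values were close to these, at 0.07 and 14.1%. Across genes, which are not independent, the difference and the NUP93-KO response correlated at r = −0.19 under triptolide and 0.01 without drug.

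**Figure D3:**
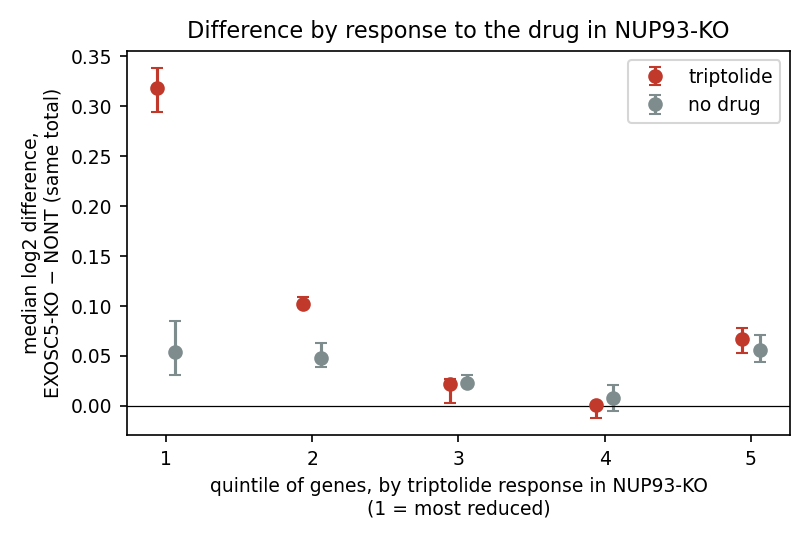
Median log2 difference of EXOSC5-KO minus NONT (vertical axis, same-total scale) in quintiles of the genes tested, ordered by the triptolide response in NUP93-KO (1 is most reduced), under triptolide and without drug. Error bars span the single pairings of libraries. The first quintile stands at 0.32 under triptolide and at 0.05 without drug.

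Genes of the p53 response, which arrest the cycle or promote death after damage, were higher in the remaining pool. Of 28 targets 24 were tested, 13 were higher and none was lower, where 10.0% of all genes were higher and 4.95% lower. The median difference was 0.57 against 0.08 for all genes. Of the 13, 1 had a NONT mean below 10 per spike-in and passed the filter only through EXOSC5-KO. Without drug 11 were higher and the median was 0.47. The count was 8 without EXOSC5-KO replicate 1, 7 with the 4 libraries alone and 3 at equal mitochondrially encoded mRNA, where all medians shift downward, and this list's stood at 0.31. AEN, an exonuclease induced by p53, stood at 144 and 115 against 37.8 and 49.0, a log2 difference of 1.56 ± 0.16 (limma adjusted p = 0.00036), and at 1737 and 1848 against 1421 and 1226 without drug. CDKN1A, the p21 inhibitor of cyclin-dependent kinases, which is outside the naming rule, stood at 2828 and 2757 against 1822 and 1809.8 under triptolide and at 4858 and 4784 against 3047 and 2997 without. CDKN1A thus differed by 0.62 with drug and 0.67 without. PHLDA3, a repressor of AKT signalling, had a log2 difference of 1.07 ± 0.25 (limma adjusted p = 0.0188).

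Secreted signalling genes moved the same way. Of 30 cytokines and chemokines 16 were tested, 9 were higher and none was lower, where 10.0% of all genes were higher and 4.95% lower. The median difference was 0.70. The count was 5 with the 4 libraries alone and 4 at equal mitochondrially encoded mRNA. CXCL8, the neutrophil chemokine IL-8, stood at 433 and 468 against 82.6 and 134, a log2 difference of 2.09 ± 0.25 (limma adjusted p = 0.000713). Without drug CXCL8 was at 177 and 159.5 against 54.0 and 36.8, so both guides carried a larger share of it after the drug than before. CCL20 stood at 105 and 121 against 21.7 and 35.9, and GDF15, a stress cytokine that is also a p53 target, at 123 and 95.2 against 36.4 and 39.7. For these 3 genes both EXOSC5-KO libraries were above both NONT libraries, as they were for 33.9% of all genes tested. Against NUP93-KO under triptolide the differences of CXCL8, CCL20 and GDF15 were 0.29, 0.15 and 0.14 and none was called (limma adjusted p = 0.533, 0.844 and 0.765). Of the 16 tested members, however, 3 others were higher than in NUP93-KO and 0 were lower, with a list median of 0.38. Of all genes 5.50% were higher and 2.31% lower in that contrast.

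Numbered ZNF genes, which code for zinc finger proteins, many of them repressors of transcription, had 249 of 509 members tested. Of these 52 were higher and none was lower, where 10.0% of all genes were higher and 4.95% lower. However, 61 of the tested members, 24 of the 52 among them, had a NONT mean below 10 and passed the filter only through EXOSC5-KO. These counts are therefore descriptions. The median difference was 0.43, compared with 0.21 without drug, where 3 were higher. The median member kept 26.3% of its untreated signal in EXOSC5-KO and 12.6% in NONT. Leaving out a library moved the count to between 23 and 35, and it was 5 with the 4 libraries alone. ZNF473, which takes part in histone pre-mRNA processing, stood at 26.7 and 22.1 against 2.53 and 1.48 under triptolide, while without drug its groups overlapped at 186 and 234 against 244 and 159. At the same total no member of the list was called for a change of its difference from no drug to drug. ZNF658 stood at 44.4 and 27.8 against 3.36 and 2.58, and ZNF514 at 62.7 and 60.0 against 13.6 and 2.90. For all 3 genes the NONT values correspond to few reads.

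The structure of the genes went with the calls. Of genes with 1 exon 24.4% were called higher, and of genes with 2 exons 27.6%, whereas the share was 13.3% for 3 to 5 exons, 8.93% for 6 to 10 and 8.01% for more than 10. The corresponding shares without drug were 8.14%, 6.20%, 3.58%, 2.73% and 3.66%. The shares under triptolide include genes that passed the filter only through EXOSC5-KO, 143 of the 1200 called higher, and were not computed without them. They are therefore descriptions. Genes called higher under triptolide had a median GC content of 50.7% and a median of 7 exons, those called lower 44.5% and 10 exons, and all genes tested 47.9% and 10 exons. The ATTTA pentamer of AU-rich elements was found in the 3′ untranslated region of 72.3% of the higher genes, 76.3% of the lower genes and 73.9% of all.

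Lysosomal and extracellular matrix genes were also mostly on the higher side, with counts that varied with the libraries. At the same total 10.0% of all genes tested were higher and 4.95% lower. Of 41 tested lysosomal genes 13 were higher and 1 was lower (ATP6V1E2), with a median of 0.27, and the higher count lay between 4 and 14 when a library was left out, and was 1 at equal mitochondrially encoded mRNA. Of the 13 higher lysosomal genes, 2 had a NONT mean below 10 per spike-in and passed the filter only through EXOSC5-KO, so the count is a description. HEXA, a subunit of the enzyme that degrades gangliosides, stood at 1074 and 1105 against 616 and 514. HEXA had a log2 difference of 0.95 ± 0.13 (limma adjusted p = 0.0013), and 1.00 without drug. Of 29 matrix genes 10 were higher and 1 was lower, and at equal mitochondrially encoded mRNA 0 were higher and 1 was lower. TIMP1, an inhibitor of matrix metalloproteinases, stood at 14181 and 14551 against 9348 and 8944. COL1A1, the collagen I chain typical of bone, was the lower gene at 25143 and 24715 against 38274 and 31028, and on the spike-in scale its difference was 0.11 and was not called.

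Many genes of cell division made up less of the EXOSC5-KO pool. Of 45 genes of mitosis and the kinetochore, all of them tested, 30 were lower and none was higher, where 4.95% of all genes were lower, with a median log2 difference of −0.55. On the spike-in scale the median was 0.02 against 0.64 for all genes, with 1 gene lower and 1 higher, so the members had about the same signal per spike-in in both groups while most other mRNAs had more. Their summed share of the pool was 0.288% in both EXOSC5-KO libraries and 0.408% and 0.430% in NONT. Without drug the median was −0.50 and 22 were lower. The count was 19 without EXOSC5-KO replicate 1, 19 without EXOSC5-KO replicate 2, 19 without NONT replicate 2, and 14 with the 4 libraries alone. DEPDC1B, which links mitotic entry to loss of adhesion, stood at 169.5 and 186 against 465 and 427. DEPDC1B had a log2 difference of −1.32 ± 0.14 (limma adjusted p = 0.00037), and −1.41 without drug. KIF11, the kinesin that separates the spindle poles, stood at 210.4 and 180.5 against 352 and 429, a log2 difference of −0.99 ± 0.12 (limma adjusted p = 0.000846). SPC25, a subunit of the NDC80 kinetochore complex, had a log2 difference of −1.27 ± 0.37 and passed narrowly (limma adjusted p = 0.046).

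Promoters of mitosis genes are shown as a description of the list, and whether their motifs bear on the lower values was not tested. They were searched on both strands for TTTGAA, the core of the cell cycle homology region, and for CCAAT, in the 300 bases that RefSeq gives around each gene start (250 before, 50 after, GRCh38.p14). Of 40 matched mitosis genes, 67.5% held TTTGAA and 80.0% held CCAAT. Among 9249 matched genes of those tested the shares were 9.33% and 36.1%, and among all 27305 promoters of the table they were 15.4% and 35.7%. For 41 matched DNA replication genes they were 2.44% and 63.4%. For 469 matched genes called lower they were 16.8% and 45.8%, and for 946 matched genes called higher 8.99% and 35.2%. Both motifs were held by 57.5% of the matched mitosis genes. The 3 named members, DEPDC1B, KIF11 and SPC25, held both, and the first 2 are printed. The promoter of LMNB1, a gene outside the list that was also looked at, held neither. In the sequences below the matches on either strand are in capitals. The DEPDC1B promoter is chr5:60700117-60700416 on the minus strand and the KIF11 promoter is chr10:92592880-92593179 on the plus strand, and each is written on its gene's strand. A match describes these letters in this window and is not a shown binding site.
DEPDC1B: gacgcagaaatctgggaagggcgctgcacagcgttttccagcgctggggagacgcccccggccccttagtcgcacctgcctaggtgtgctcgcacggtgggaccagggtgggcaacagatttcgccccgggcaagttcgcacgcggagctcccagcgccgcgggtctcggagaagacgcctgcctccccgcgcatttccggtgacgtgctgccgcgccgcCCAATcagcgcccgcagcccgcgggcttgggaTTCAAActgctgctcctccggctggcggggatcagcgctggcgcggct
KIF11: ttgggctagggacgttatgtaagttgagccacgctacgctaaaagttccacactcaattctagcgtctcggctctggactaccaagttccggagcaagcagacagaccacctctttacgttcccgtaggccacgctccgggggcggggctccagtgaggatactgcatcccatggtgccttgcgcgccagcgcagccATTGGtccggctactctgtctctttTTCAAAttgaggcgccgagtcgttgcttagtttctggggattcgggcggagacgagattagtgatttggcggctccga

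DNA replication genes followed mitosis. Of 48 tested genes 15 were lower and none was higher, where 4.95% of all genes were lower and 10.0% higher. The median was −0.26, with a median of −0.31 and 17 lower without drug. On the spike-in scale the median was 0.31 and the sign was thus the opposite. RRM2, the small subunit of ribonucleotide reductase, stood at 3275 and 2959 against 5089 and 5490.2, a log2 difference of −0.76 ± 0.06 (limma adjusted p = 0.000129). Of 10 replacement histone genes 4 were lower and 1 was higher. H2AX, the variant marked at DNA breaks, stood at 612 and 569 against 1118 and 1059 with a log2 difference of −0.88 ± 0.08 (limma adjusted p = 0.000228).

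A few cell cycle genes were lower on the spike-in scale as well, against the general shift. CDKN2C, the p18 inhibitor of CDK4 and CDK6, stood at 49.5 and 50.3 against 148 and 159 at the same total, a log2 difference of −1.60 ± 0.15 (limma adjusted p = 0.00025), and its difference per spike-in was −1.03. HMGB2, a chromatin protein of dividing cells, stood at 429 and 394 against 873 and 934, and SKP2, which targets p27 for degradation, at 237 and 219.6 against 503 and 566. Their differences per spike-in were −0.56 and −0.65 (limma adjusted p = 0.0427 and 0.0391), and both calls were lost when any of the 4 libraries was left out. MTMR4, a lipid phosphatase, stood at 15.8 and 22.5 against 95.1 and 119 under triptolide, while its untreated groups overlapped at 368 and 240.0 against 278 and 399. The change of the MTMR4 difference from no drug to drug was not called at the same total. FAM83H was called lower but was at 15.2 and 0 against 482 and 137, and without drug at 380.1 and 258 against 7.55 and 0, a pattern in which replicates and conditions jump between high and near 0.

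Some genes of the mRNA decay machinery passed the test, where 10.0% of all genes were higher and 4.95% lower. Of 12 genes of the exosome core, EXOSC4, another subunit of the ring, was higher and EXOSC5 and EXOSC7 were lower. EXOSC4 stood at 280.3 and 296 against 121 and 119, a log2 difference of 1.26 ± 0.13 (limma adjusted p = 0.000325), and without drug its difference was 0.11. At the same total the change of its difference from no drug to drug was not called. EXOSC4 kept 31.6% of its untreated signal in EXOSC5-KO and 9.61% in NONT. Of 14 exosome cofactors, ZFC3H1, which links the exosome to polyadenylated nuclear RNA, and ZCCHC7 were higher and HBS1L was lower. With the 4 libraries of the contrast alone no cofactor was called, and of the exosome core 1 gene was higher and 1 was lower. Of 32 other decay enzymes 3 were higher and 2 were lower (CNOT6L and CNOT1 of the CCR4-NOT deadenylase). With the 4 libraries alone 1 of these enzymes was higher and 0 were lower. CNOT1 stood at 1369 and 1198 against 1816 and 2461, and on the spike-in scale its difference was −0.15 and was not called.

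Short-lived mRNAs that the study followed were nearly gone in both groups. MYC stood at 6.47 and 6.59 against 4.02 and 3.55, where without drug it was at 858 and 901 against 768 and 869.9, and JUN was listed at 0 except in EXOSC5-KO replicate 2, at 8.20. Both fell below the filter and were not tested. MCL1, an antiapoptotic BCL2 relative, stood at 63.6 and 46.6 against 25.2 and 56.1, and WEE1, a kinase that holds back mitosis, at 13.1 and 12.7 against 16.7 and 28.9. Neither was called at the same total (limma adjusted p = 0.385 and 0.158). Per spike-in MCL1 was called higher, as were 45.9% of all genes. MCL1 kept 1.28% of its untreated signal in EXOSC5-KO and 0.685% in NONT. In the BCL2 family 15 genes were tested, 3 were higher and 1, BCL2L12, was lower, where 10.0% of all genes were higher and 4.95% lower. Of the 3 higher genes, 1 had a NONT mean below 10 per spike-in and passed the filter only through EXOSC5-KO. The lower call was lost without NONT replicate 1, without NONT replicate 2 and with the 4 libraries alone, and on the spike-in scale all 15 differences were above 0. The proapoptotic BAX stood at 2710.4 and 2948 against 1786 and 1288, and the antiapoptotic BCL2L1 at 781 and 995 against 467 and 547.

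Abundant housekeeping mRNAs moved in both directions. Signal here is not divided by transcript length, so it is used to compare a gene between libraries only. ACTB was lower at the same total, at 106694 and 105790.0 against 125269 and 137056, and VIM at 39210.0 and 39624 against 48013 and 49561, while GAPDH had a difference of 0.05 that was not called. At the same total 4.95% of all genes were lower and 10.0% higher. Of 85 cytosolic ribosomal protein genes 15 were lower and 2 were higher, with a median of −0.05. That split turned with the scale, since 55 were higher and none was lower per spike-in, where 45.9% of all genes were higher. Of 36 translation factors 4 were lower and of 36 proteasome subunits 3 were lower, with no gene higher in either list. The 13 mitochondrially encoded mRNAs, which are made by a separate polymerase, were higher in sum by a ratio of 1.78 per spike-in (1.64 to 1.93 over the single pairings). All 13 were called higher per spike-in, as were 45.9% of all genes. Their median member kept 104% of its untreated signal per spike-in in EXOSC5-KO and 73.5% in NONT. Their median log2 difference at the same total was 0.27 under triptolide and 0.33 without drug. At the same total 2 of them were called, MT-ND1 and MT-ND4, with log2 differences of 0.37 and 0.33, and their summed share of the signal reached 1.24% and 1.39% in the knockout libraries, where the NONT libraries had 1.01% and 1.18%. The pool was slightly less concentrated in EXOSC5-KO, where 583 and 582 genes made up 50% of the signal against 548 and 538 in NONT.

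**Figure D4:**
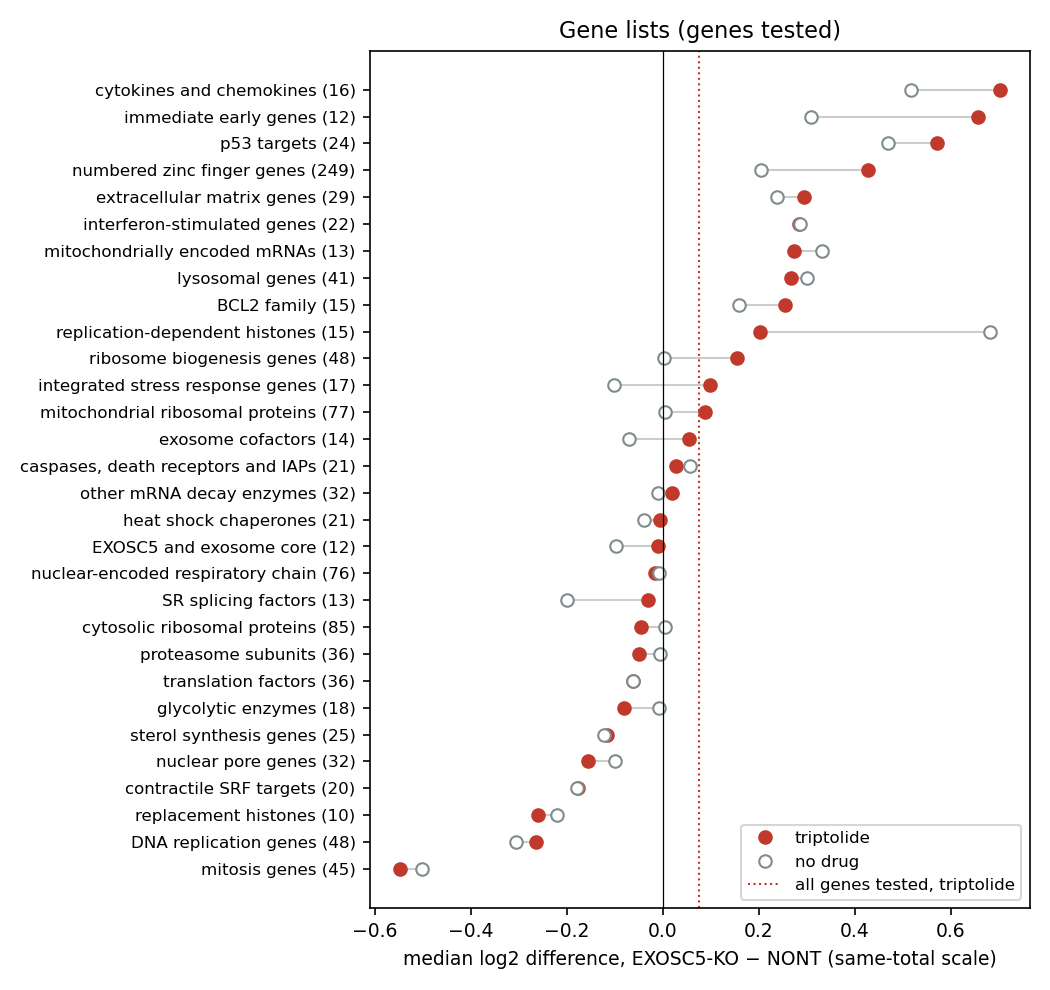
Median log2 difference of EXOSC5-KO minus NONT (horizontal axis, same-total scale) for lists with at least 10 genes tested, under triptolide (filled) and without drug (open), with the number of genes tested in brackets. The dotted line is the median of all genes under triptolide. Cytokines and chemokines stand highest at 0.70 and mitosis genes lowest at −0.55.

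The remaining lists gave mixed counts at the same total, where 10.0% of all genes tested were higher and 4.95% lower. Heat shock chaperones had 4 higher and 5 lower of 21 tested, and integrated stress response genes 5 and 4 of 17. Of the 5 higher stress response genes, 2 had a NONT mean below 10 per spike-in and passed the filter only through EXOSC5-KO. SR splicing factors had 4 and 4 of 13, and caspases with death receptors and their inhibitors 6 and 3 of 21. Contractile targets of SRF had 4 higher and 7 lower of 20. Among them TPM1 stood at 5612 and 5796 against 7678 and 7567, and its order was the same without drug, at 3925 and 4015 against 5581 and 5611. Interferon-stimulated genes had 2 higher and 1 lower of 22, sterol synthesis genes 1 and 3 of 25, nuclear pore genes 1 and 4 of 32, glycolytic enzymes 2 and 3 of 18, ribosome biogenesis genes 6 and 2 of 48, mitochondrial ribosomal proteins 10 and 1 of 77, respiratory chain genes of the nucleus 2 and 3 of 76, and replication-dependent histones 2 and 1 of 15.

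The same contrast without drug uses other libraries of the same guides. On the same-total scale it called 414 genes higher (3.46%) and 310 lower (2.59%). Of the 1200 genes higher under triptolide 277 were among those 414, which is 23.1% of the first list and 66.9% of the second. Of the 592 lower genes 216 were among the 310, or 36.5% and 69.7%. The sign without drug was the same for 89.3% of the 1200 higher genes and 92.7% of the 592 lower genes, where 55.5% of all genes were above 0 and 44.5% below. Across all 11969 genes the differences with and without drug correlated at r = 0.41 (Spearman's rho = 0.46), a description over genes of cells that share guide and transfection. On the spike-in scale, where the untreated median was 0.06, 62 genes were higher (0.518%) and 3 were lower (0.0251%) without drug.

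Against NUP93-KO under triptolide, the other knockout that the study used, EXOSC5-KO differed in some of its leading genes and not detectably in others. This contrast shares the EXOSC5-KO libraries with the main one, so the values are set side by side and not compared. At the same total it called 658 genes higher in EXOSC5-KO (5.50%) and 277 lower (2.31%), and per spike-in 93 higher (0.777%) and 23 lower (0.192%). PCF11 was at 48.1 and 29.4 and PCSK5 at 414 and 456 in NUP93-KO, both far below EXOSC5-KO, with log2 differences of 4.43 and 2.66. IER2 was at 25.3 and 24.3 in NUP93-KO, between the NONT and EXOSC5-KO values. CXCL8 was at 353 and 383 and HEXA at 1039 and 1106, with differences of 0.29 and 0.02 that were not called. The gene sums under triptolide were 8.22 and 8.79 M in NUP93-KO.

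**Figure D5:**
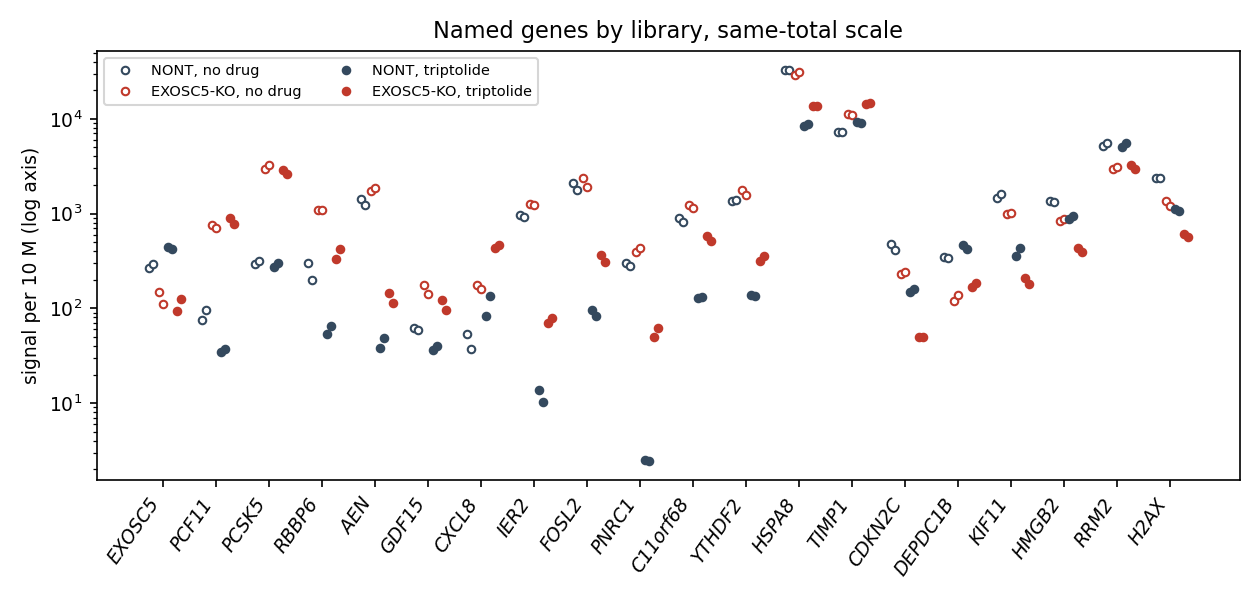
Signal per 10 M (vertical log axis, same-total scale) of named genes in NONT and EXOSC5-KO libraries, without drug (open) and under triptolide (filled), each point a library. PCF11 and PCSK5 are apart with and without drug, IER2 and PNRC1 are apart chiefly under triptolide, and CDKN2C, DEPDC1B and KIF11 are lower in EXOSC5-KO.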

How the data were processed

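Poly(A)-selected RNA of 12 libraries in 6 groups of 2 was sequenced, and the sample labels gave each library its group and number. The authors pseudoaligned paired reads with kallisto 0.46.1 to GRCh38 transcripts and ERCC sequences, summarised them per gene with tximport, and divided by DESeq2 size factors estimated on the 92 ERCC transcripts. The deposited values are therefore a spike-in-normalised signal of protein-coding genes and not counts, and whole reads were not recovered from them, since 35.2% to 39.0% of low values were whole multiples of the worth of 1 read (within 0.05). The DESeq2 model of the study could not be run on them. Approximate depth was 8.60 to 12.0 M reads over the 12 libraries.

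The filter was a mean of 10 or more in the 4 libraries compared. Values were tested as log2(value + 1), which understates the change of low genes, with limma 3.58.1 in R 4.3.3 (6 group means over 12 libraries, eBayes with trend, two-sided, Benjamini-Hochberg over 11969 genes, threshold 0.05). The tests of single sums were exact permutation tests. The filter admitted 696 genes whose NONT mean was below 10 and 61 whose EXOSC5-KO mean was. Of the 696, 143 were called higher at the same total, and the shares by exon number and by quintile include such genes. Symbols, exons and GC content came from GENCODE 44, in which 632 tested IDs had no match, and 365 tested rows were identical to another, leaving 11764 distinct rows. The fit was tested on simulated data. Summaries used Python 3.11.15 and pandas 2.3.3.

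The members and the gene lists were chosen with earlier results of these data known. Genes named were EXOSC5, MYC, WEE1, JUN and MCL1, the 10 most abundant genes, the mitochondrially encoded mRNAs, up to 10 genes per scale and direction with the largest difference among those called, with a group mean of at least 100 and no overlap, and up to 3 called genes per list and direction at the same total. Genes named outside the rule are marked. The value of 1 gene that the rule would name is not reported here. Alternatives were other pseudocounts (0.1 and 10), filters, scalings, models and sets of libraries, and leaving out each library.

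Replicate numbers did not pair the samples: the deviations of same-numbered libraries correlated at −0.06 to 0.05 over 15 pairs of groups, so no block was used in the main model.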

Additional observations from a re-analysis of the deposited data

Results flagged for a closer look

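For 9 genes the EXOSC5-KO minus NONT difference under triptolide differed from the same difference without drug, by the interaction term of the limma model on the same-total scale. The difference between the 2 log2 differences was 3.50 ± 0.40 (SE) for PNRC1, 2.91 for RTL10, 2.14 ± 0.23 for IER2, 1.74 for FOSL2, 1.59 ± 0.15 for C11orf68 (limma adjusted p = 0.0036), 1.25 for WDR74, 1.02 for YTHDF2, 0.79 ± 0.07 for HSPA8 (limma adjusted p = 0.00266) and 0.63 for FRMD6. PNRC1, RTL10 and IER2 had a NONT mean below 10 per spike-in under triptolide and passed the filter only through EXOSC5-KO, so their calls are given as descriptions. PNRC1, IER2, C11orf68 and HSPA8 kept the call whichever of the 4 libraries was left out, FRMD6 in 3 of the 4, RTL10, WDR74 and YTHDF2 in 2, and FOSL2 in 1. Scaled to equal mitochondrially encoded mRNA, PNRC1, IER2 and C11orf68 kept it. The number of genes with a larger gap under triptolide rose to 94 when NONT replicate 1 was left out and was 4 in the model without a mean-variance trend. In NONT under triptolide PNRC1 had a signal of 1.48 and 1.21 per spike-in, which is few reads and close to the pseudocount of 1. Groups of 2 libraries were too small for a test of single outlying libraries.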

How the results depend on the processing

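The same-total median over all genes, 0.08, changed sign to −0.02 with the median of ratios and to −0.18 with the mitochondrial mRNA scale, and with it the higher against lower split, while no gene among the largest differences changed sign. On the spike-in scale, 5493 higher and 18 lower genes became 1520 to 5690 and 13 to 34 when a library was left out, a step that leaves 1 group with a single library assumed to vary like the others, and the lower count was 11 with a mean of at least 50 and 28 with no filter on low values. At the same total, 1200 higher and 592 lower genes became 595 to 1162 and 312 to 511 without a library, 298 and 192 with the 4 libraries of the contrast only, and 492 and 319 with the 6 triptolide libraries only, both of which fit fewer samples. They became 859 and 1096 with the median of ratios and 241 and 619 with the mitochondrial mRNA scale. The ratio of sums ranged from 1.35 to 1.64, the median log2 difference per spike-in from 0.50 to 0.77, and the differences in pool share from 0.13 to 0.30 percentage points for mitochondrially encoded mRNAs, −0.65 to −0.17 for cytosolic ribosomal proteins and −0.14 to −0.12 for mitosis genes. The replicate block gave 5098 higher and 24 lower genes per spike-in and 1148 and 580 at the same total, in samples that share only a number. Of 487 repeats of the largest differences by gene, 436 kept their call and 51 lost it. List counts and the higher filter for the quintiles by NUP93-KO response were alternatives chosen after seeing the data. Depth limits genes near the filter, where NONT values correspond to few reads.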
